A study of Mus musculus with 2 samples.

Results

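The growth hormone, JAK2 and STAT5 axis was described here through the open chromatin at 8 genes: the receptors *Ghr* and *Prlr*, the kinase *Jak2*, the transcription factors *Stat5a* and *Stat5b*, their feedback targets *Socs2* and *Cish*, and the repressor *Bcl6*. A region belonged to a gene when the authors' table of accessible regions names that gene as the one with the closest transcription start site (TSS). This gave 44 of the 69549 distinct regions. Regions centred within 1000 bp of that TSS were taken as promoter regions, and 8 of the 14387 promoter regions met this, at 7 of the 8 genes. The other 36 regions, of 55162 in all, are described apart. *Socs2* had no promoter region by this rule. The members are placed by position alone, without regard to their counts.

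Accessibility was measured by ATAC-seq, in which the transposase Tn5 cuts open DNA and tags it for sequencing, so that reads pile up where chromatin is open. All mice were of C57BL/6 background, carried *Mettl3* flox/flox alleles, were fed normal chow and were 8 weeks old. *Mettl3*-HKO mice also carried *Alb*-Cre+/-, which deletes *Mettl3*, the gene of an RNA methyltransferase, in cells with an active albumin promoter, so the other cells of the liver keep it. Reads at open chromatin do not show a deletion of exons, so the genotypes are as labelled. Livers of 4 mice were pooled for each genotype into 1 library, so mouse-to-mouse spread is unknown, and every comparison below is between 2 libraries. Pairs of counts are given with the *Mettl3* flox/flox library first.

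Growth hormone binds its receptor on the hepatocyte and activates JAK2, a tyrosine kinase bound to the receptor, which phosphorylates STAT5A and STAT5B. The phosphorylated proteins pair, enter the nucleus and bind palindromic sites of the form TTCNNNGAA, where they switch on genes such as *Igf1*, *Socs2* and *Cish*. The SOCS2 and CIS proteins then act back on the receptor to end the signal, and BCL6, a zinc finger repressor, can occupy sites that resemble those of STAT5. In rodents the timing of growth hormone pulses differs between males and females and sets much of the sex difference in liver gene expression.

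The stretches below were chosen because a region with reads lies over each of them and because they show where the STAT5 consensus does and does not occur at the members. They are from RefSeq on GRCm38.p6, each read 5′ to 3′ on the strand of its gene. Capitals mark every match to TTCNNNGAA, a pattern that reads the same on both strands. The *Cish* stretch is chr9:107296534-107296683 (plus strand), which ends 25 bases after the RefSeq start. The stretches of *Stat5a* at chr11:100859506-100859655 (plus strand) and of *Stat5b* at chr11:100822571-100822720 (minus strand) are the 150 bases before a RefSeq start. The *Bcl6* stretch, chr16:23988913-23989002 (minus strand), and the *Prlr* stretch, chr15:10223756-10223845 (plus strand), are parts of the 250 bases before a start.
*Cish*: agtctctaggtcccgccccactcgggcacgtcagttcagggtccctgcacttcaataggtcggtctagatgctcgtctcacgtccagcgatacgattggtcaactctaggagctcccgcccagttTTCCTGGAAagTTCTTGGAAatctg
*Stat5a*: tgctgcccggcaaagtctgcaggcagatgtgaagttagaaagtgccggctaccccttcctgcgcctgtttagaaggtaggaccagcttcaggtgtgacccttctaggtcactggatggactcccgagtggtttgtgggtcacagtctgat
*Stat5b*: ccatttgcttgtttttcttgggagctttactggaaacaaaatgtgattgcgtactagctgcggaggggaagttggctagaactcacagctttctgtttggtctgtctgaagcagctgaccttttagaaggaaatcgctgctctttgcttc
*Bcl6*: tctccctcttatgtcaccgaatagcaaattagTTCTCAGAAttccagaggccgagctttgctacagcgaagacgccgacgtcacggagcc
*Prlr*: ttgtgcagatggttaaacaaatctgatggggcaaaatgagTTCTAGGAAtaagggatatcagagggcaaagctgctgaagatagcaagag

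The RefSeq table used here gives 13 promoter windows of 300 bases (250 before and 50 after a start) for 7 of the 8 genes, all but *Socs2*, and 4 of the 13 held TTCNNNGAA, which occurs in 8.3% of all 32851 windows. These were the *Cish* window, a *Prlr* window in intron 1 and both *Bcl6* windows. In *Cish* the matches TTCCTGGAA and TTCTTGGAA begin at bases 1 and 12 counted from the RefSeq start. The downstream window of *Bcl6*, chr16:23981234-23981533, held 3 matches, TTCCTGGAA, TTCTGTGAA and TTCCGGGAA, which begin 168, 122 and 88 bases before its start. No window of *Ghr*, *Jak2*, *Stat5a* or *Stat5b* held one. The same motif with 1 more base between TTC and GAA was found in 0 of the 13 windows and in 6.95% of all windows. GGGCGG, a GC box, was found in 6 of the 13 and in 35.7% of all, CCAAT in 4 and 37.4%, and TATAAA in 1, a *Ghr* window, and 13.6%. These are matches of letters on either strand, and binding was not measured.

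The reads on regions made up 31.7% of the total behind the deposited values for *Mettl3* flox/flox but 22.3% for *Mettl3*-HKO. On the scale set by those totals, the log2 ratio (the *Mettl3*-HKO value divided by that of *Mettl3* flox/flox) had a median of −0.38 over all regions. Log2 ratios are therefore given relative to this median, and adding −0.38 returns them to the scale of the deposited RPM. Each is followed by its 95% Clopper-Pearson interval from the 2 counts, which covers counting error only. On this relative scale the median of all promoter regions was −0.19 and that of all other regions 0.10. The weakest regions, with mean counts up to 41, stood higher, with medians of 0.55 for promoter regions and 0.73 for other regions.

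Most promoters of the axis were less accessible in the *Mettl3*-HKO library, as were most promoters in general. The relative log2 ratio was below 0 in 7 of the 8 promoter regions, against 66.4% of all promoter regions, and its median over the 8 was −0.49. *Bcl6* and the upstream region of *Stat5a* were the lowest, followed by *Stat5b*, whereas *Cish* was the 1 region above 0. At least 2-fold lower were 2 of the 8, against 5.0% (720 of 14387) of all promoter regions, and 0 of the 8 were at least 2-fold higher, against 6.90%. On the scale of the deposited RPM, 3 of the 8 were at least 2-fold lower, against 16.3% of all promoter regions, and 0 higher, against 4.07%. The counting interval lay below 0 in 6 of the 8, against 46.0% of all promoter regions, and above 0 in 1, against 17.6%.

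**Figure D1:**
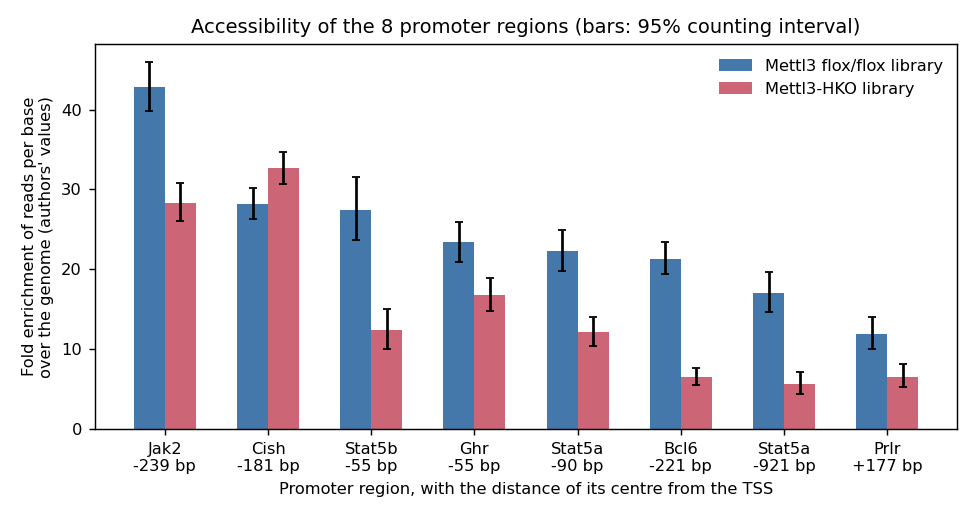
Fold enrichment of reads per base over the genome at each of the 8 promoter regions, taken from the deposited values, for the *Mettl3* flox/flox library (blue) and the *Mettl3*-HKO library (red). Error bars are exact 95% Poisson intervals of the counts. Only the *Cish* region is higher in the *Mettl3*-HKO library, at 32.7 against 28.2, and the *Bcl6* region stands at 6.48 against 21.3.

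Compared per base, by the authors' fold enrichment over the genome, *Jak2* had the most open promoter in the *Mettl3* flox/flox library, at 42.8, and *Prlr* the least, at 11.9. Between them stood *Cish* at 28.2, *Stat5b* at 27.5, *Ghr* at 23.4, the *Stat5a* region nearest its TSS at 22.3, *Bcl6* at 21.3 and the upstream *Stat5a* region at 17.0. The Poisson intervals of neighbours in this order overlapped from *Cish* down to *Bcl6* and from *Bcl6* to the upstream *Stat5a* region, so only *Jak2* at the top and *Prlr* at the bottom stood clear of their neighbours. In the *Mettl3*-HKO library *Cish* took the first place, at 32.7, with an interval of 30.7 to 34.7 that just overlapped that of *Jak2*, at 28.3 (26.0 to 30.8). *Ghr* followed at 16.8, *Stat5b* at 12.4 and the nearer *Stat5a* region at 12.2. *Prlr* at 6.57, *Bcl6* at 6.48 and the upstream *Stat5a* region at 5.69 closed the order with overlapping intervals.

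Of the receptor genes, *Ghr* was nearly level between libraries at its promoter and *Prlr* was lower in the *Mettl3*-HKO library. The *Ghr* promoter region, on chromosome 15 from 3582900 to 3583671, is centred 55 bp upstream of the TSS and had 348 and 274 counts. Its log2 ratio of −0.10 (−0.34 to 0.13) was not distinguishable from 0 at this depth, and its sign turned, to 0.08 relative to the median of all promoter regions and to 0.17 relative to the strongest 10% of them. *Prlr* encodes the receptor for prolactin, a hormone related to growth hormone that signals through the same kinase. Its promoter region, from 10177529 to 10178137 on the same chromosome, centred in the 5′ UTR, had 139 and 84 counts and a peak in the *Mettl3* flox/flox library only. The log2 ratio was −0.48 (−0.89 to −0.08), at the 24.6th percentile of all promoter regions.

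Downstream of the receptors, the *Jak2* promoter differed little while those of both Stat5 genes were lower in the *Mettl3*-HKO library. The *Jak2* region, on chromosome 19 from 29251127 to 29252052, had 765 and 556 counts, a log2 ratio of −0.22 (−0.38 to −0.06), near the middle of all promoter regions at the 46.7th percentile, and of 0.050 relative to the strongest 10% of promoter regions. *Stat5b*, whose product is the main growth hormone effector in liver, had 1 promoter region, on chromosome 11 from 100822400 to 100822768. It held 195 and 96 counts, a log2 ratio of −0.77 (−1.15 to −0.42) at the 10.1th percentile. *Stat5a*, its neighbour and close relative, had 2 promoter regions. The nearer, from 100860044 to 100860746, had 302 and 181 counts, a log2 ratio of −0.49 (−0.77 to −0.23). The upstream one, from 100859279 to 100859849 and centred 921 bp from the TSS, just inside the promoter limit, had 187 and 68 counts. No peak was called there in the *Mettl3*-HKO library, and its log2 ratio of −1.20 (−1.64 to −0.81) lay at the 2.56th percentile of all promoter regions. The intervals of the *Stat5a* regions did not overlap.

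Of the feedback genes, *Cish* was higher in the *Mettl3*-HKO library, and the only region that the rule gives *Socs2* did not differ beyond counting error. *Cish*, which encodes the STAT5-induced inhibitor CIS, had a single region, on chromosome 9 from 107295989 to 107297464. At 1476 bp it is the longest of the 44, and it takes in the RefSeq start with both STAT5-type matches shown above. It held 803 and 1024 counts, or 15.2 and 17.7 RPM. The log2 ratio was 0.59 (0.46 to 0.73), a 1.51-fold difference relative to the median of all regions, and lay at the 88.3th percentile of all promoter regions. It stayed above 0 on every scale tried, from 0.21 on that of the deposited RPM to 0.86 relative to the strongest 10% of promoter regions. *Socs2*, the other classical STAT5 target, had only 1 region by the rule, in intron 1 on chromosome 10 from 95408495 to 95408928. Its 201 and 176 counts gave a log2 ratio of 0.05 (−0.25 to 0.35), within counting error of the median region. The outer end of the RefSeq model of *Socs2*, at 95417321, lies in a further region, from 95416495 to 95417482, which the authors' table assigns to a gene without a symbol, ENSMUSG00000097766. That region had 857 and 627 counts, a log2 ratio of −0.21 (−0.36 to −0.06). Inside the model, regions assigned to genes without a symbol also lie over the 3′ UTR and from 95415164 to 95415395. The first had 43 and 64 counts (0.80, 0.24 to 1.41). The second had 141 and 93 (−0.35, −0.75 to 0.03), with a peak in the *Mettl3* flox/flox library only.

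*Bcl6* had the lowest ratio of the member promoters. Its promoter region, on chromosome 16 from 23972065 to 23973138, had 442 and 147 counts. The log2 ratio was −1.34 (−1.63 to −1.07), or 2.53-fold lower, at the 1.64th percentile of all promoter regions. The 3 other *Bcl6* regions were lower as well. The one 7.27 kb upstream of the TSS had 226 and 137 counts (log2 ratio −0.48) and the one 3.95 kb upstream 152 and 79 (−0.69). The one 9.82 kb downstream had 48 and 17 counts (−1.20, with a peak in the *Mettl3* flox/flox library only). In all 4 the counting interval lay below 0, as it did in 46.0% of all promoter regions. That share was not taken over all other regions, of which 36.7% had an interval spanning 0.

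For *Bcl6*, *Stat5b*, *Stat5a* and *Prlr*, regions at different starts of the gene differed. The comparison in this paragraph was chosen after the values were seen. The TSS that the authors give for *Bcl6* lies inside the RefSeq gene, which runs from 23965050 to 23988866 on the minus strand. The region over the outer RefSeq start, from 23988223 to 23989151, holds the *Bcl6* stretch printed above and is assigned to *Gm37419*. It had 714 and 712 counts, a log2 ratio of 0.24 (0.09 to 0.39), in contrast to −1.34 at the inner start. Between these starts, 2 more regions assigned to *Gm37419* were lower in the *Mettl3*-HKO library. The one from 23980993 to 23981229, next to the downstream RefSeq window, had 200 and 121 counts (−0.48, −0.82 to −0.15), and the one from 23982370 to 23982893 had 396 and 268 (−0.32, −0.55 to −0.09). *Stat5b* was similar. A region from 100850234 to 100851129 lies over a RefSeq start of *Stat5b* but is closest to the TSS of *Stat5a*, 9.80 kb away, so the rule counts it as an other region of *Stat5a*. It had 732 and 643 counts, a log2 ratio of 0.05 (−0.10 to 0.21), against −0.77 at the *Stat5b* promoter region. At *Stat5a* itself the region over the upstream RefSeq start was the lower one, but its peak was in the *Mettl3* flox/flox library only, which selects in part for being high there. The same holds for the promoter region of *Prlr* and for the other regions of *Ghr* and *Bcl6* that were at least 2-fold lower. The RefSeq models of *Stat5b* and *Stat5a* lie head to head and 346 bp apart, and the upstream *Stat5a* region reaches from the gap between them into the *Stat5a* model. At *Ghr*, a region with 113 and 82 counts (−0.22, −0.65 to 0.20) overlaps the window of another RefSeq start but not the start itself. It did not differ from the promoter region at −0.10 beyond counting error. At *Prlr*, the region over the start in intron 1 stood at 0.28 (−0.05 to 0.61) and the promoter region at −0.48 (−0.89 to −0.08). Here, unlike at *Bcl6*, the outer start was the lower one.

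**Figure D2:**
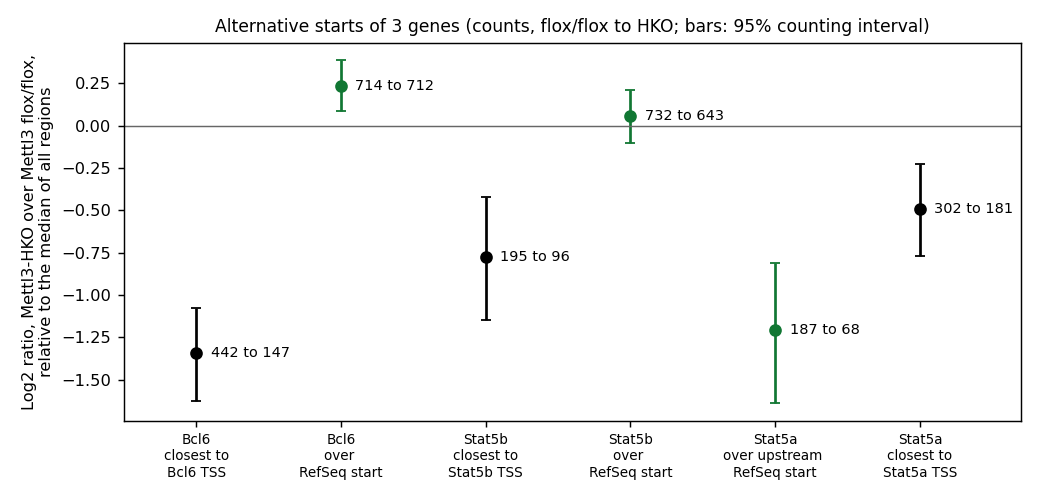
Relative log2 ratio (vertical axis) of pairs of regions at alternative starts of *Bcl6*, *Stat5b* and *Stat5a*. Black points are the promoter regions closest to the authors' TSS and green points lie over another RefSeq start, with 95% counting intervals and the counts of the *Mettl3* flox/flox and *Mettl3*-HKO libraries beside each. The regions over the outer start of *Bcl6* (0.24) and over another, not the outermost, start of *Stat5b* (0.05) stand above their partners at −1.34 and −0.77. *Prlr*, where the outer start was the lower one, is not shown.

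Away from the promoters the members did not move together. Of the 36 other regions 19 had a relative log2 ratio above 0 and 17 below, with a median of 0.03. At least 2-fold higher were 4 of the 36, against 23.5% of all other regions, and 2 were at least 2-fold lower, against 8.65%. On the scale of the deposited RPM the counts were 3 higher, against 15.6%, and 4 lower, against 18.8%. Each of these shares of the 36 lies below its background. Among the 26 regions with a peak in both libraries, 1 was at least 2-fold higher, against 8.93%, and 0 lower, against 5.26%. The counting interval spanned 0 in 23 of the 36, against 36.7% of all other regions.

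**Figure D3:**
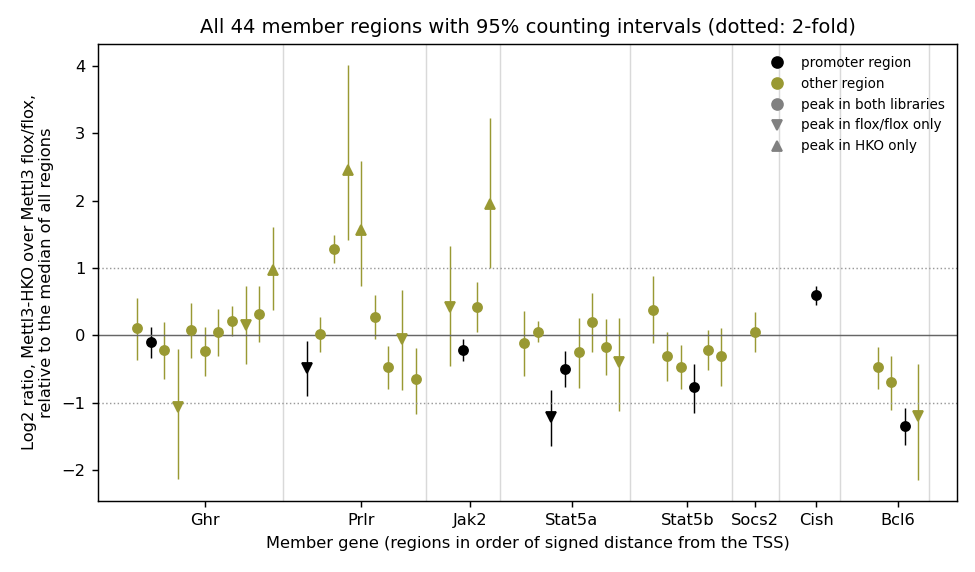
Relative log2 ratio (vertical axis) of all 44 member regions, grouped by gene and ordered within a gene by signed distance from the TSS, with 95% counting intervals. Black marks are promoter regions and olive marks other regions; triangles mark a peak in 1 library only and dotted lines a 2-fold difference. All 4 *Bcl6* regions lie below 0 and the highest marks are weak regions of *Prlr* (intron 1) and *Jak2* (exon 4) with a peak in the *Mettl3*-HKO library only.

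In *Prlr*, intron 1 held the 8 other regions, and they spread from −0.65 to 2.45. The one with the most reads, 25.2 kb downstream of the TSS from 10202394 to 10203334, had 284 and 585 counts, or 5.39 and 10.1 RPM. Its log2 ratio was 1.28 (1.08 to 1.49), and it is the 1 region with a peak in both libraries that was at least 2-fold higher. On the scale of the deposited RPM its log2 ratio was 0.90, short of 2-fold. A pair of weak regions followed 10 to 11 kb farther along, with 7 and 36 counts (log2 ratio 2.45, 1.42 to 4.02) and with 15 and 39 counts (1.56, 0.73 to 2.59). Beyond these, the region over a RefSeq start in intron 1, with the STAT5-type match shown above, had 156 and 160 counts, a log2 ratio of 0.28 (−0.05 to 0.61). The next, 48.2 kb from the TSS, was lower, with 219 and 133 counts (−0.47), as was the last, 71.8 kb from the TSS, with 105 and 56 counts (−0.65). The weak pair had a peak in the *Mettl3*-HKO library only, which selects in part for being high there. Farther into the RefSeq gene lie 8 more regions that the table assigns to *Gm21973*. Of these, 7 were above 0, and 3 were at least 2-fold higher, each with a peak in the *Mettl3*-HKO library only. Over all other regions 45.7% were below 0, and the 2-fold shares are those given above, 23.5% of all and 74.1% of the regions with a peak in the *Mettl3*-HKO library only.

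*Ghr* had 10 other regions, and 8 of them lie deep in introns 1 and 2, from 70.5 to 133 kb downstream of the TSS. The strongest, 118 kb from the TSS in intron 1, was nearly level between libraries, with 334 and 328 counts, or 6.34 and 5.67 RPM, and a log2 ratio of 0.22 (−0.01 to 0.44). It drew almost as many reads as the promoter in the first library and more in the second. The lowest was a weak region in intron 1 with 36 and 14 counts (−1.06, −2.13 to −0.19). The highest lay in intron 2 with 37 and 62 counts (0.97, 0.38 to 1.61). A region just outside the promoter limit, 1029 bp downstream of the TSS, had 113 and 82 counts (−0.22), and one 1313 bp upstream had 86 and 78 (0.10). The interval spanned 0 in 8 of the 10. Further regions inside the RefSeq gene are assigned to *Ccdc152*. The one in intron 2 had 35 and 40 counts (0.43, −0.26 to 1.13). The one in intron 9 had 25 and 65 (1.59, 0.93 to 2.35), with a peak in the *Mettl3*-HKO library only, which selects in part for being high there.

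**Figure D4:**
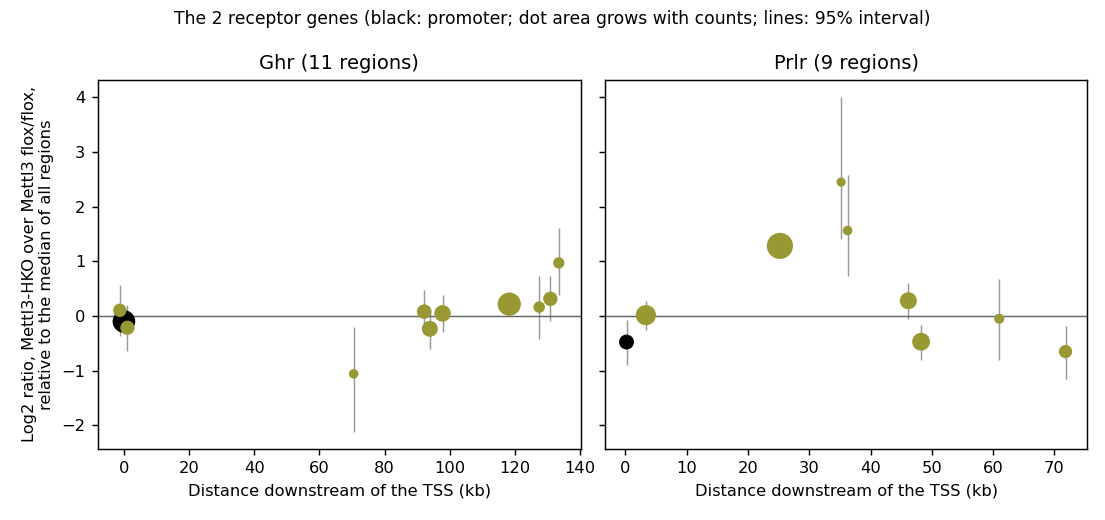
Relative log2 ratio (vertical axis) against distance downstream of the TSS in kb for the regions of *Ghr* and *Prlr*. Black points are promoter regions, point area grows with the summed counts of both libraries and lines are 95% counting intervals. The *Prlr* region at 25.2 kb stands at 1.28, and the smaller points beside it, at 35.2 and 36.3 kb, have a peak in the *Mettl3*-HKO library only. The plotted regions in *Ghr* introns stay near 0 apart from weak ones at 70.5 and 133 kb.

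The other regions of *Jak2* lay above the median of all regions, and most of those of the STAT5 genes did not differ from it beyond counting error. Over all other regions 45.7% lay below 0. In *Jak2*, the region in intron 3, 13.8 kb downstream of the TSS, had 113 and 128 counts (log2 ratio 0.42, 0.05 to 0.80), and a weak region over exon 4 had 10 and 35 counts (1.95, 1.0 to 3.23). Another, upstream of the gene, had 22 and 25 counts (0.42, −0.46 to 1.32). Both of these weak regions have mean counts below 41, where the median of all other regions was 0.73. The 6 other *Stat5a* regions ran from −0.40 to 0.19 with every interval across 0. The 5 of *Stat5b* ran from −0.47 to 0.38, and the lowest, 6.54 kb upstream with 213 and 130 counts, had an interval below 0.

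A peak in the *Mettl3*-HKO library only selects regions that are higher there, and 74.1% of all such other regions were at least 2-fold higher. For the members it was 3 of 4, the weak *Prlr* pair and the *Jak2* exon 4 region. Markers of endothelial cells and macrophages were also higher in the *Mettl3*-HKO library, at low counts, and all 5 endothelial markers at least 2-fold higher and both macrophage markers had a peak in that library only. Of 8 endothelial markers 7 had a promoter region, with summed counts of 153 and 400 and a median relative log2 ratio of 1.98. For macrophage markers it was 2 of 8, with 53 and 112 counts, for cholangiocyte markers 5 of 8, with 831 and 698, for stellate markers 2 of 8, with 727 and 175 (*Reln* 690 and 132, *Col1a1* 37 and 43), and for lymphocyte markers 0 of 8. All 8 hepatocyte markers had one, with 3825 and 2892 counts and a median of −0.27. In pooled tissue, a smaller share of a cell type and less open chromatin per cell cannot be told apart, and the part of cell composition in the values of the members was not tested.

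Other genes of the pathway were described by lists. Each gene is represented by its strongest promoter region, and 10603 genes with a symbol had such a region, with a median relative log2 ratio of −0.21. Over all promoter regions 66.4% were below 0, 5.0% were at least 2-fold lower and 6.90% at least 2-fold higher. Of the 8 JAK and STAT relatives 6 had a promoter region, with a median of −0.11, and 0 were 2-fold away from the median of all regions. The highest was *Jak1*, a kinase of interferon and cytokine receptors, with 728 and 641 counts (0.06, −0.10 to 0.21). All 6 other SOCS genes had a region, with a median of −0.10 and a range from *Socs3*, the feedback inhibitor of interleukin-6 signals, at −0.30 (648 and 446 counts), to *Socs1*, the inhibitor of interferon signals, at 0.35 (415 and 447 counts).

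Among 16 adaptors and phosphatases that act on the receptor complex, 15 had a promoter region, with a median of −0.28. Of these 12 were below 0 and 3 above, against 66.4% of all promoter regions below 0, and 0 were at least 2-fold away. The lowest was *Irs1*, a substrate shared with the insulin receptor, with 1429 and 701 counts (−0.78, −0.92 to −0.65). The highest was *Grb10*, a growth-limiting adaptor, with few reads (46 and 58 counts, 0.57, −0.01 to 1.17). Of 10 genes that growth hormone or STAT5 induces in liver or that act with it, 8 had one. *Igf1* and *Igfbp3* had none within 1000 bp of the TSS that the authors give. These 8 split evenly, 4 above 0 and 4 below, against 66.4% of all promoter regions below 0. *Serpina3k*, a protease inhibitor gene, was highest with 487 and 602 counts (0.55, 0.37 to 0.72), and *Lepr*, the leptin receptor gene, lowest with 52 and 26 counts (−0.73, −1.50 to −0.05). *Igfals*, which encodes the subunit that holds IGF1 in the circulation, had 706 and 717 counts (0.26, 0.11 to 0.42). Relative to the strongest 10% of promoter regions these list medians other than that of the adaptors turned positive, at 0.16 for the JAK and STAT relatives and 0.17 for both the SOCS and the induced genes. With the median of every region of a gene, those of the JAK and STAT relatives and of the induced genes turned positive too, at 0.23 and 0.26.

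**Figure D5:**
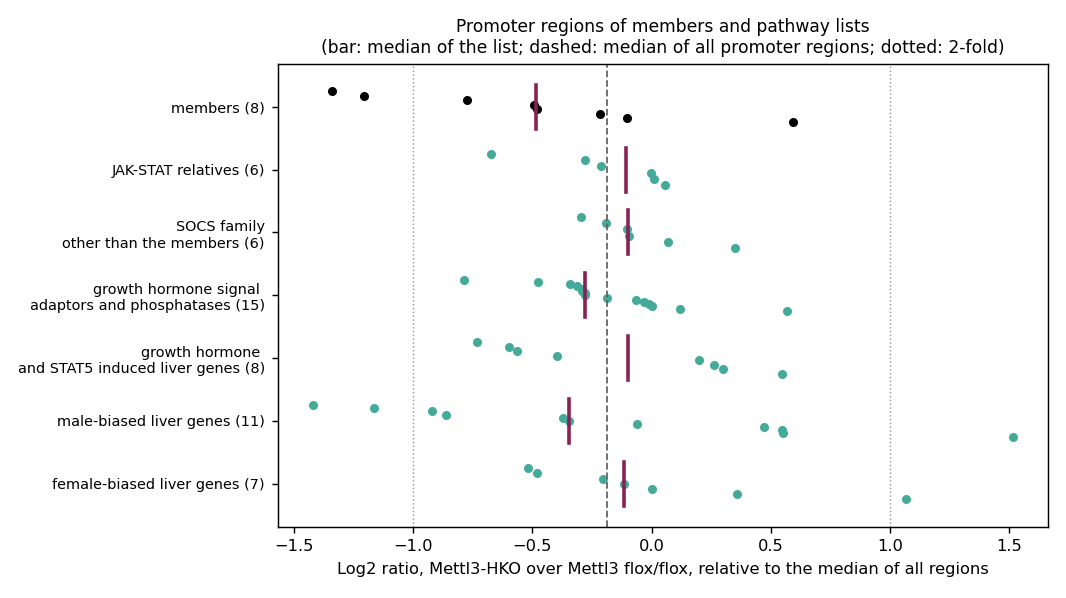
Relative log2 ratio (horizontal axis) of the 8 member promoter regions (black) and of the strongest promoter region of each gene in 6 lists (teal), with the number of points in parentheses. Maroon bars are medians, the dashed line is the median of all promoter regions (−0.19) and dotted lines mark 2-fold. The members' median of −0.49 lies farthest left, and *Cish*, at 0.59, is the 1 member point right of 0.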

How the data were processed

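The authors pooled livers of each genotype, trimmed adaptors with skewer and aligned reads with BWA to GRCm38. They kept properly paired non-mitochondrial reads of high mapping quality and called peaks with MACS2, duplicates included. How peaks were merged and counted, and whether ends were shifted for Tn5, is not given in the sources used here. Deposited were the raw count of each region in each library, its RPM, and its fold enrichment, a ratio to the genome mean. A deposited log2 fold change of the authors was not used. The deposited RPM equal the count plus 1 over totals of 52826202 (*Mettl3* flox/flox) and 58038305 (*Mettl3*-HKO).

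Of 74821 rows, 5272 repeats of a region were dropped, and starts were converted to count from 1. Log2 ratios used counts plus 1 and were centred on the median of all regions. With 1 library per group no test was made. Clopper-Pearson intervals (95%) and Poisson intervals cover counting error only, and whether the counts hold duplicates is not given. The median promoter region had 370 and 265 counts, the median other region 66 and 68. Members and gene lists were chosen with earlier results of these data known. Named were all members, every promoter region, the strongest region per member and regions 2-fold from the median, and per list the extremes and genes past 2-fold; *Igfals* was added after its value was seen. The value of 1 list gene is not reported here. In a simulation of all 69549 regions, counts were drawn with counting error only, and a 2-fold change was put into 200 regions with many reads. The log2 ratios of the 200 had a median absolute error of 0.078. Of the intervals checked, at the 200 and a sample of unchanged regions, 96.4% held the true value. Coverage near 95% follows from how the counts were drawn, and the error does not extend to weak regions or to spread between mice. RefSeq sequences (GRCm38.p6) were matched by symbol. Scaling, added counts, promoter window, count filter, fold and value per gene were varied. The software was matplotlib 3.10.9, scipy 1.17.1, pandas 2.3.3 and numpy 2.4.6 under Python 3.11.15.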

Additional observations from a re-analysis of the deposited data

How the results depend on the processing

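No paired analysis was possible because each group has 1 library. Each scaling shifts all ratios alike: the totals behind the RPM values by −0.38, whereas the strongest 10% of promoter regions have a median of −0.27, so that ratios relative to them are higher by that amount. The median of the member promoter regions moved from −0.49 to −0.86 on the first and to −0.22 on the second, where the *Jak2* promoter reversed to 0.050. It was −0.30 relative to the median of promoter regions and −0.35 with the wider promoter window. The number of member promoter regions at least 2-fold lower changed from 2 to 1 relative to the strongest 10% of promoter regions, and that of regions higher from 0 to 1 with a 1.5-fold limit, which 11.8% of all promoter regions passed. Of the other regions, 4 in place of 2 were lower on the RPM totals and with the 1.5-fold limit (20.2% of all other regions), and 0 were relative to the strongest 10% of promoter regions or with 10 counts added to each count. The 2 regions lower on the relative scale, in *Ghr* and *Bcl6*, held at most 48 counts. The upstream *Stat5a* region falls outside the narrower promoter window and gave no value there. *Cish* stayed above 0 and *Bcl6*, *Stat5b* and both *Stat5a* regions below 0 in each alternative that gave a value. Of these alternatives, the promoter windows and the count filter could not change the ratio of a single region. Spread between mice is unknown.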

Other observations

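Genes whose liver expression differs between the sexes under growth hormone control were listed as well, and the sex of the mice is not given in the sources used here. Of 12 male-biased genes 11 had a promoter region, 7 below 0 and 4 above, with a median relative log2 ratio of −0.35. Over all promoter regions 66.4% were below 0. At least 2-fold lower were 2 of the 11, against 5.0% of all promoter regions, and 1 was at least 2-fold higher, against 6.90%. *Mup3*, a major urinary protein gene, had 189 counts in the first, *Mettl3* flox/flox, library and 59 in the second, *Mettl3*-HKO (−1.42, 95% interval −1.89 to −1.01), with a peak in the first only. *Susd4*, which encodes a complement regulator, had 142 and 53 counts (−1.16, −1.66 to −0.72). *Cyp4a12a*, a fatty acid hydroxylase gene, had few reads and went the other way, with 18 and 45 counts (1.52, 0.75 to 2.44) and a peak in the *Mettl3*-HKO library only. The Mup and Cyp4a12 genes have near-identical copies, so their counts are uncertain. The authors filtered reads for mapping quality, so reads that fit several copies may be missing from these counts.

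Of 16 female-biased genes only 7 had a promoter region, 3 above 0 and 4 below, against 66.4% of all promoter regions below 0. Their median was −0.12, which turned to 0.15 relative to the strongest 10% of promoter regions. *A1bg* was the highest, with 21 and 38 counts (1.07, 0.29 to 1.94) and a peak in the *Mettl3*-HKO library only, and *Cyp2b10*, a cytochrome P450 gene of drug metabolism, the lowest, with 121 and 71 counts (−0.52, −0.97 to −0.09). *Cux2*, a female-biased repressor, had 45 and 38 counts (0.0035, −0.66 to 0.65), and no difference was detectable at this depth. Taking the median of every region of a gene in place of its strongest promoter region, the list medians turned to 0.051 for the male-biased and 0.36 for the female-biased genes.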
